A study of Carica papaya with 12 samples.

Results

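Ripe fruit flesh of the yellow-fleshed papaya ‘1B’ was compared with ripe flesh of the red-fleshed ‘RB1’, gene by gene. Papaya (Carica papaya) fruit of both varieties had been collected unripe, at ripening stage 1, and ripe, at ripening stage 3, with 3 fruits per variety and stage as replicates, 12 RNA-Seq libraries in all. The labels give ‘1B’ a bitter flavour and a musty aroma, and ‘RB1’ a sweet flavour and a floral aroma; the labels give no treatment that differed between groups, and per the study's methods all fruit had received the fungicide prochloraz after harvest. The comparison used ‘1B’ ripe replicates 1 to 3 and ‘RB1’ ripe replicates 1 and 2, 5 of the 12 libraries. The study set ‘RB1’ ripe replicate 3 aside as an outlier, because it lay closer to the unripe group in a principal component analysis. That library served here only as a check. Reads had been assembled without a genome, so a gene is a Trinity gene, the group of assembled isoforms that share an identifier, and its value is a gene sum, the counts added over its isoforms. The table holds 180368 transcripts under 75259 Trinity genes, and 34437 gene sums had enough counts to be tested. Names were taken from the study's list of 118 transcripts of sugar and volatile metabolism, which belong to 77 Trinity genes, all of them tested. The study chose those transcripts for their differences between the same varieties, so a difference among the 77 genes is not independent evidence. The other transcripts carry no name in the tables used here, and no list of flesh markers could be checked.

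A ripening fruit turns starch and imported sucrose into free sugars. Sucrose is split by invertases into glucose and fructose, or by sucrose synthases into fructose and UDP-glucose, while amylases, phosphorylases and glucanotransferases take starch apart. Fruit aroma draws on the same carbon: pyruvate and acetyl-CoA feed the mevalonate and plastid pathways of terpenes, fatty acids give rise to aldehydes and alcohols, and dehydrogenases and acyltransferases turn these into acids and esters. Beta-glucosidases release glucose, and at times volatile compounds, from glycosides.

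Total counts ran from 54828527 to 60099964 in the ‘1B’ ripe libraries, against 45518740 and 10949060 in ‘RB1’ ripe replicates 1 and 2, and ‘RB1’ ripe replicate 3 had 56116016. A count was found for 65007 to 67288 gene sums per library in ‘1B’, against 57162 and 39729 in ‘RB1’. Levels are given as CPM, counts scaled to a common library size after TMM scaling over all 12 libraries. Fold changes are ‘1B’ over ‘RB1’ on the log2 scale, from edgeR's quasi-likelihood fit of the 5 libraries, with its standard error (SE) and a p adjusted over all gene sums tested. Over the 6741 gene sums with a mean of at least 10 CPM, the median SD of the log2 level was 0.0868 in ‘1B’ (n = 3) and 0.151 in ‘RB1’ (n = 2). A gene was called when its adjusted p was under 0.05 and its absolute log2 fold change above 1.5, the study's thresholds.

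The varieties differed widely in ripe flesh, and the direction of the calls varied with a gene's level. Of the 34437 gene sums, 10145 (29.5%) were called, 6160 (17.9%) higher and 3985 (11.6%) lower in ‘1B’, with a median absolute log2 fold change of 2.39 and quartiles of 1.87 and 3.40. Most of the excess in ‘1B’ lay among rare transcripts. Below a mean of 1 CPM, 4909 of 20585 gene sums were higher and 1899 lower in ‘1B’. The low-count filter admits so rare a gene more easily through the 3 ‘1B’ libraries than through the 2 of ‘RB1’. That split therefore cannot be read as a trait of the varieties. From 1 to 10 CPM 967 were higher and 1033 lower, and the order turned to 1340 and 797 by library size only and to 1235 and 880 after thinning. Between 10 and 100 CPM, the range of 33 of the 77 listed genes, 218 of 5901 gene sums were higher and 924 lower in ‘1B’. From 100 to 1000 CPM there were 56 higher and 111 lower, which turned to 84 and 76 by library size only, and at 1000 CPM or more 10 and 18. The median log2 fold change moved in step, at 0.74 below 1 CPM and -0.51 between 10 and 100 CPM, against 0.31 over all gene sums. Without ‘RB1’ ripe replicate 1 the calls fell to 6323, with 2249 higher and 692 lower below 1 CPM and 283 higher and 744 lower between 10 and 100 CPM. With counts thinned to the depth of the shallowest library, 281 were higher and 722 lower between 10 and 100 CPM. Below 1 CPM only 3372 gene sums still had enough counts, with 1242 called higher and 366 lower. At that depth so rare a gene has enough counts mainly through the variety where it is higher, so that split is no check. Scaled by library size only, 8600 gene sums were higher and 3085 lower. Shifted to a median of 0, 4875 were higher and 5145 lower, so the overall majority depended on the scaling. In bulk flesh, fewer cells of a type and less RNA per cell cannot be told apart.

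**Figure D1:**
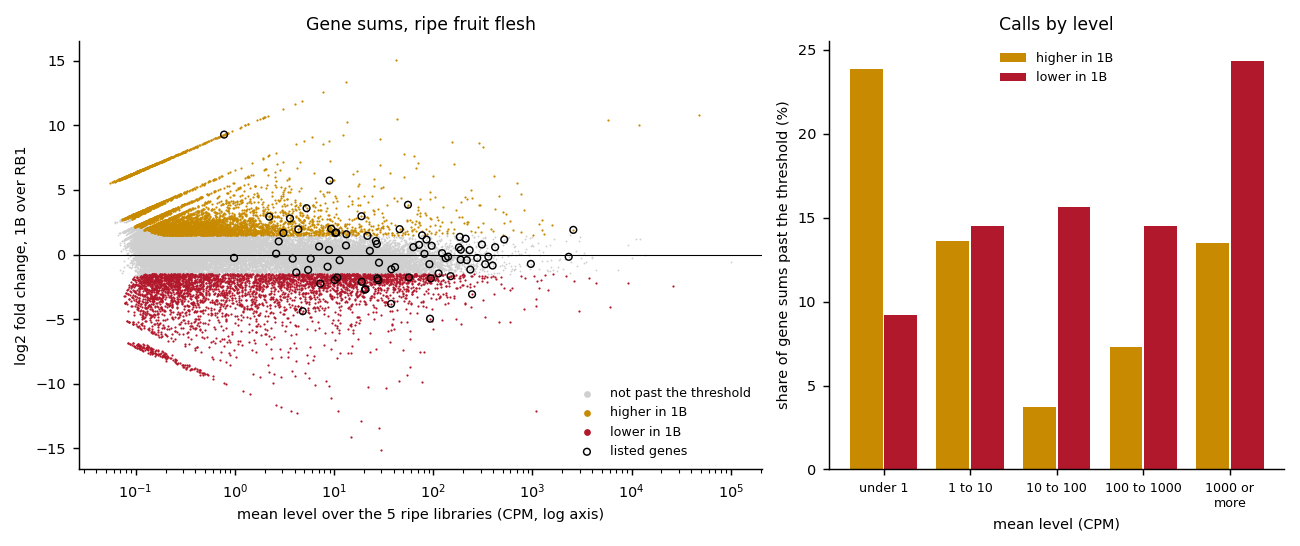
Left, log2 fold change of each tested gene sum, ‘1B’ over ‘RB1’, against its mean level in CPM over the 5 ripe libraries on a log axis, with the 77 listed genes as open circles. Right, percent of the gene sums in 5 ranges of mean level that were called higher or lower in ‘1B’; below 1 CPM 4909 were higher and 1899 lower, between 10 and 100 CPM 218 were higher and 924 lower.

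‘RB1’ ripe replicate 3 lay with neither ripe group throughout, and its distance to the unripe libraries was not measured here. For 5601 of the 10145 called gene sums its level was nearer to the ‘1B’ mean than to the mean of ‘RB1’ replicates 1 and 2, and for 4544 it was nearer to ‘RB1’. Among genes lower in ‘1B’ 2873 of 3985 lay nearer to ‘1B’, and among genes higher in ‘1B’ 2728 of 6160. When the replicate was kept, 4405 of 30593 gene sums (14.4%) were called, 2401 higher and 2004 lower, and 4180 gene sums were called in the same direction with and without it. Of the 10145 called gene sums, 4524 were called in the same direction in each of the 5 fits that left out 1 library.

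The 77 listed genes split evenly, with 15 called higher and 15 called lower in ‘1B’ (39.0% of them, against 29.5% of all gene sums). Their median log2 fold change was 0.05, against 0.31 over all gene sums. The levels of the 5 libraries did not overlap for 69 of them (72.4% of all gene sums, but 81.4% from 1 to 10 CPM and 85.0% between 10 and 100 CPM). By adjusted p alone 32 were higher and 29 lower (55.4% of all gene sums passed, 29.7% higher and 25.7% lower), so 31 genes passed the adjusted p but not the fold threshold. The split moved with the scaling, to 19 higher and 12 lower by library size only, 23 and 9 in limma on TMM-scaled TPM, the authors' level per transcript length, plus 0.1, 18 and 6 in limma on TMM-scaled TPM plus 1, and 11 and 18 with the median of all gene sums set to 0. Only the 3 genes of the mevalonate pathway were all called in 1 direction, and the plastid isoprenoid genes, the beta-glucosidases and the terpene synthase and benzoyltransferase genes had no member called. The 3 genes of trehalose metabolism were all called too, but in both directions. With ‘RB1’ ripe replicate 3 kept, 17 listed genes were called, all in the same direction as without it. Leaving out 1 library ended the call of 4 of the 30 genes. These were MVD2 (-1.49), long chain acyl-CoA synthetase 2 (-1.47) and pyruvate kinase isozyme A (1.44) without ‘RB1’ ripe replicate 1, and trehalose-phosphate phosphatase F (1.47) without ‘RB1’ ripe replicate 2.

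**Figure D2:**
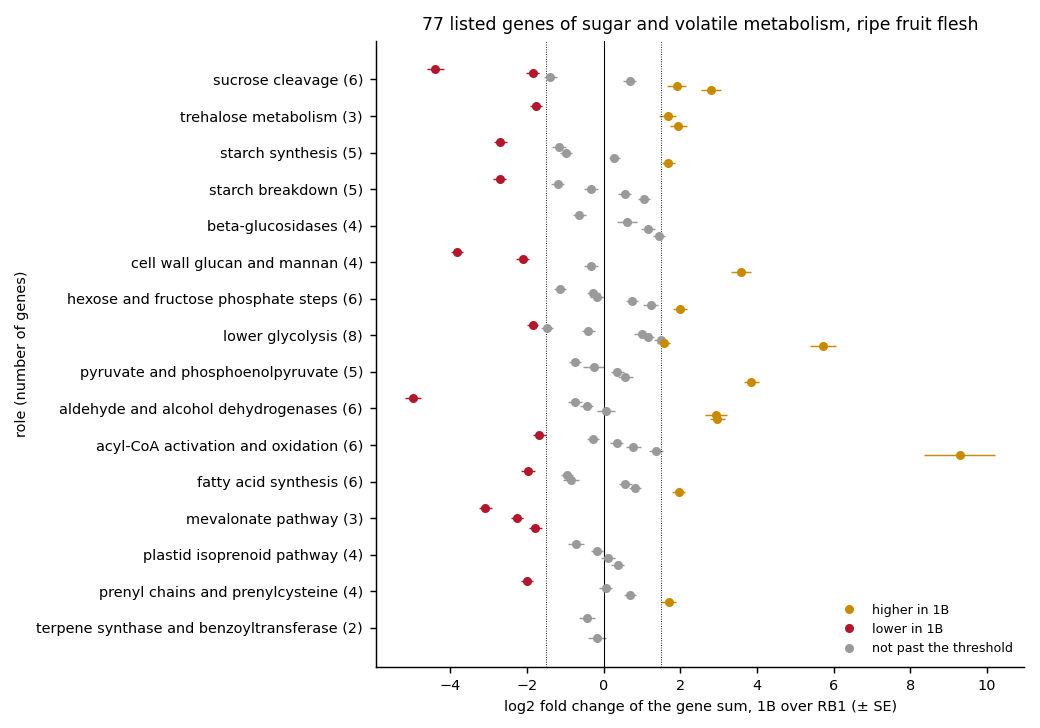
Log2 fold change (± SE) of each of the 77 listed gene sums, ‘1B’ over ‘RB1’ in ripe flesh, by role, with dotted lines at the fold threshold. The 15 genes higher and the 15 lower in ‘1B’ are spread over most roles, and all 3 mevalonate genes lie on the lower side.

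Both kinds of sucrose-cleaving enzyme had genes on either side. The insoluble invertase 1 gene (beta-fructofuranosidase, TRINITY_DN1273_c2_g1), whose enzyme is bound to the cell wall and splits sucrose outside the cell, was the most abundant listed gene in ripe ‘1B’, with 3401, 3487 and 4080.0 CPM in ‘1B’, against 1053 and 900.0 CPM in ‘RB1’. It was 3.74-fold higher in ‘1B’ (log2 fold change 1.91, SE 0.25, adjusted p = 5.95e-08). The vacuolar acid invertase gene (TRINITY_DN3457_c0_g1), which splits stored sucrose, went the other way, with 0.660, 0.624 and 0.290 CPM in ‘1B’, against 10.7 and 11.9 CPM in ‘RB1’. It was 21.5-fold lower in ‘1B’ (log2 fold change -4.39, SE 0.22, adjusted p = 2.97e-18). ‘RB1’ ripe replicate 3 had 8.45 CPM of the vacuolar gene, close to the other ‘RB1’ fruits, but 4861 CPM of the insoluble gene, above every ‘1B’ library. Over all 6 ripe libraries the vacuolar gene was still called (log2 fold change -4.31, adjusted p = 0.000774) and the insoluble one was not (0.67, adjusted p = 0.457).

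The sucrose synthase genes took different shares of their family in the 2 varieties. The authors' TMM-scaled TPM, a level per unit of transcript length, puts ‘1B’ higher relative to ‘RB1’ than CPM does, by a median of 1.49-fold over all gene sums tested (quartiles 1.45 and 1.55), so a family's sum depends on the scale while the shares within it do not depend on that shift. The 4 sucrose synthase genes together had 57.7 ± 1.85 TMM-scaled TPM in ‘1B’ (SD, n = 3) and 53.6 ± 2.46 in ‘RB1’ (SD, n = 2), but 168 ± 4.19 CPM in ‘1B’ and 246 ± 22.4 CPM in ‘RB1’. Sucrose synthase 3-like (TRINITY_DN775_c0_g2) held 68.8% of the TPM in ‘1B’ and 30.6% in ‘RB1’, and the sucrose synthase TRINITY_DN775_c0_g3 (cpSUS) 24.3% and 63.5%. In counts, cpSUS had 48.9, 50.2 and 39.8 CPM in ‘1B’, against 180.0 and 154 CPM in ‘RB1’, and was called lower (log2 fold change -1.85, SE 0.16, adjusted p = 1.21e-11). Sucrose synthase 3-like had 111, 115 and 114 CPM in ‘1B’, against 74.1 and 67.8 CPM in ‘RB1’, a log2 fold change of 0.68 (SE 0.16, adjusted p = 0.000715) that stayed under the fold threshold. The third gene of that assembly cluster, sucrose synthase 2 (TRINITY_DN775_c0_g1), was rarer but differed most, with 4.74, 4.73 and 7.04 CPM in ‘1B’, against 0.845 and 0.621 CPM in ‘RB1’ (log2 fold change 2.79, SE 0.26, adjusted p = 3.65e-11). Sucrose synthase 5 (TRINITY_DN2092_c0_g1) had 2.28 to 2.88 CPM in ‘1B’, against 6.42 and 6.83 CPM in ‘RB1’, under the fold threshold (log2 fold change -1.39, adjusted p = 4.72e-08). ‘RB1’ ripe replicate 3 had shares near those of ripe ‘1B’, with 68.1% from sucrose synthase 3-like and 19.5% from cpSUS. Shares in unripe fruit were not taken. With that replicate neither cpSUS (log2 fold change -1.46, adjusted p = 0.0588) nor sucrose synthase 2 (-0.22, adjusted p = 0.893) was called. The 3 genes under TRINITY_DN775_c0 may share reads, so how counts were divided among them is uncertain.

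Genes of trehalose metabolism, which makes and removes the sugar signal trehalose 6-phosphate, were all called, 2 higher and 1 lower. Trehalose-phosphate synthase 1-like (TRINITY_DN4138_c2_g1), which makes the signal, had 6.43, 6.48 and 5.42 CPM in ‘1B’, against 1.31 and 2.17 CPM in ‘RB1’ (log2 fold change 1.95, SE 0.22, adjusted p = 2.81e-09). Of the phosphatases that remove it, F (TRINITY_DN1847_c0_g1) had 4.54, 4.28 and 4.11 CPM in ‘1B’, against 1.49 and 1.01 CPM in ‘RB1’ (log2 fold change 1.67, SE 0.22, adjusted p = 9.77e-08). Phosphatase D (TRINITY_DN2555_c0_g1), the more abundant one, had 31.3, 30.5 and 24.9 CPM in ‘1B’, against 107.02 and 90.4 CPM in ‘RB1’, 3.42-fold lower (log2 fold change -1.77, SE 0.16, adjusted p = 1.46e-11). No ‘1B’ library overlapped an ‘RB1’ library in any of the 3 genes. The same held for 72.4% of all gene sums, for 81.4% from 1 to 10 CPM and for 85.0% between 10 and 100 CPM. All 3 were also called over the 6 ripe libraries, with log2 fold changes of 2.41, 1.55 and -1.56 (adjusted p = 0.0426, 0.00736 and 0.00815).

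Of 10 starch genes 3 were called, 30%, against 29.5% of all gene sums. Granule-bound starch synthase 1 (GBSS1, TRINITY_DN5853_c0_g2), which makes amylose, had 7.43, 6.95 and 5.23 CPM in ‘1B’, against 47.5 and 36.7 CPM in ‘RB1’, 6.44-fold lower (log2 fold change -2.69, SE 0.17, adjusted p = 8.92e-16). The large subunit of glucose-1-phosphate adenylyltransferase (TRINITY_DN7033_c0_g1), an enzyme that makes the sugar donor of starch, was higher, with 14.4, 13.9 and 14.4 CPM in ‘1B’, against 4.61 and 4.11 CPM in ‘RB1’ (log2 fold change 1.68, SE 0.17, adjusted p = 2.92e-10). The other 3 starch synthesis genes did not pass the fold threshold. Among 5 genes of starch breakdown, 4-alpha-glucanotransferase DPE1 (TRINITY_DN260_c0_g1), which joins and shortens the chains left by amylases, was the one called, with 5.52, 5.86 and 7.74 CPM in ‘1B’, against 43.8 and 39.7 CPM in ‘RB1’ (log2 fold change -2.71, SE 0.16, adjusted p = 2.98e-16). The breakdown genes not called ran from -1.19 for beta-amylase 7 to 1.05 for alpha-amylase 3. With ‘RB1’ ripe replicate 3, which had 26.9 CPM of DPE1 but 1.63 CPM of GBSS1, DPE1 was still called (log2 fold change -2.55, adjusted p = 0.00113) and GBSS1 was not (-2.15, adjusted p = 0.12).

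Cell wall genes gave some of the wider gaps. Endoglucanase 25-like (TRINITY_DN2388_c0_g1), of a family that acts on cellulose, had 6.37, 6.29 and 5.35 CPM in ‘1B’, against 93.2 and 76.4 CPM in ‘RB1’, 14.1-fold lower (log2 fold change -3.82, SE 0.16, adjusted p = 4.78e-20). Endo-beta-mannosidase 7 (TRINITY_DN4654_c1_g1), which cuts mannans, stood in the opposite order, with 7.65, 7.58 and 10.1 CPM in ‘1B’, against 0.825 and 0.310 CPM in ‘RB1’, 14.8-fold higher (log2 fold change 3.59, SE 0.26, adjusted p = 6.65e-14). Both remained called with ‘RB1’ ripe replicate 3, which had 8.70 CPM of the endoglucanase and 2.76 CPM of the mannosidase (log2 fold changes -3.33 and 2.58, adjusted p = 0.0168 and 0.0213). The gene TRINITY_DN4424_c0_g1 was also lower (log2 fold change -2.11, SE 0.16, adjusted p = 4.80e-13). The enzyme code and the sequence name of its listed transcripts do not match, as in 6 of the 77 genes, so it is given no role.

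No beta-glucosidase gene was called, although each of the 4 passed the adjusted p alone. Together they had 671 ± 12.2 TMM-scaled TPM in ‘1B’ (SD, n = 3) and 206 ± 9.82 in ‘RB1’ (SD, n = 2), a ratio of 3.26, but 728 ± 26.6 CPM in ‘1B’ and 352 ± 19.8 CPM in ‘RB1’, a ratio of 2.07. Putative beta-glucosidase 41 (TRINITY_DN150_c2_g1) made up 95.3% of the TPM in ‘1B’ and 90.6% in ‘RB1’. In counts this gene had 649, 656 and 696 CPM in ‘1B’, against 309 and 290.2 CPM in ‘RB1’ (log2 fold change 1.16, SE 0.19, adjusted p = 5.78e-06). Beta-glucosidase 42-like (TRINITY_DN1938_c0_g1, cpBGLU42) lay just under the threshold, with 29.6, 27.9 and 29.6 CPM in ‘1B’, against 10.5 and 10.9 CPM in ‘RB1’ (log2 fold change 1.45, SE 0.16, adjusted p = 1.51e-09). Leaving out any 1 of the ‘1B’ libraries put it past the threshold (1.56, 1.60 and 1.56), and ‘RB1’ ripe replicate 3, at 25.2 CPM, lowered it to 0.88. BoGH3B-like (TRINITY_DN3108_c0_g1, cpBGH3B) had 25.5, 26.3 and 18.2 CPM in ‘1B’, against 40.6 and 31.4 CPM in ‘RB1’ (log2 fold change -0.63, SE 0.17, adjusted p = 0.00172). Beta-glucosidase 31-like (TRINITY_DN3009_c0_g1, cpBGLU31) overlapped between the varieties, with 5.49, 5.23 and 13.9 CPM in ‘1B’, against 5.27 and 5.43 CPM in ‘RB1’ (log2 fold change 0.62, SE 0.26, adjusted p = 0.0465).

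Of 14 hexose phosphate and lower glycolysis genes 3 were called higher and 1 lower in ‘1B’, 28.6% of them, against 29.5% of all gene sums. The ATP-dependent 6-phosphofructokinase 6-like gene (TRINITY_DN6534_c0_g3), at the entry to glycolysis, had 13.7, 13.4 and 13.2 CPM in ‘1B’, against 3.76 and 2.64 CPM in ‘RB1’ (log2 fold change 1.99, SE 0.18, adjusted p = 3.02e-11). The beta subunit of the pyrophosphate-dependent enzyme of the same step (TRINITY_DN2802_c0_g1, cpPFP), which also runs in reverse, had 263, 258 and 304 CPM in ‘1B’, against 128.4 and 107.3 CPM in ‘RB1’, under the fold threshold (log2 fold change 1.22, SE 0.18, adjusted p = 8.10e-07). In that gene ‘RB1’ ripe replicate 3 had 694.5 CPM, and over 6 libraries the value was -0.19 (adjusted p = 0.849). The phosphoglycerate mutase TRINITY_DN2089_c0_g2, of lower glycolysis, had 19.5, 8.78 and 16.2 CPM in ‘1B’, against 0.241 and 0.388 CPM in ‘RB1’, 47.0-fold higher (log2 fold change 5.72, SE 0.35, adjusted p = 8.83e-16). That difference also turned on the library set, as ‘RB1’ ripe replicate 3 had 32.3 CPM and the call was lost with it (log2 fold change 0.39, adjusted p = 0.856).

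The pyruvate kinases, which close glycolysis, differed in opposite directions by isozyme. Isozyme G (TRINITY_DN6161_c0_g1) had 14.4, 13.5 and 12.2 CPM in ‘1B’, against 50.1 and 46.5 CPM in ‘RB1’ (log2 fold change -1.85, SE 0.15, adjusted p = 9.85e-13). Isozyme A (TRINITY_DN5471_c0_g1), annotated to the chloroplast like G, had 17.1, 16.6 and 20.4 CPM in ‘1B’, against 5.55 and 6.91 CPM in ‘RB1’ (log2 fold change 1.57, SE 0.17, adjusted p = 1.35e-09). Plastidial pyruvate kinase 2 (TRINITY_DN1288_c0_g1) had 96.4, 92.1 and 123 CPM in ‘1B’, against 38.9 and 35.4 CPM in ‘RB1’, and its log2 fold change of 1.49 (SE 0.18, adjusted p = 7.60e-09) fell just under the threshold. In TMM-scaled TPM the 3 plastid genes and the cytosolic pyruvate kinase 1 summed to 154 ± 6.01 in ‘1B’ (SD, n = 3) and 97.9 ± 2.58 in ‘RB1’ (SD, n = 2), with 51.7% from the cytosolic gene in ‘1B’ and 71.0% in ‘RB1’. In CPM the sums were 303 ± 13.3 in ‘1B’ and 313 ± 32.0 in ‘RB1’, so the higher sum in ‘1B’ was seen on the TPM scale only. Pyruvate, phosphate dikinase (TRINITY_DN15218_c0_g1), which turns pyruvate back into phosphoenolpyruvate, had 94.6, 92.3 and 78.8 CPM in ‘1B’, against 5.88 and 6.52 CPM in ‘RB1’, 14.3-fold higher. It was the one gene of 5 called in its group, and stayed called with ‘RB1’ ripe replicate 3 (2.42 CPM there, log2 fold change 4.16, adjusted p = 0.000904). Of the other called glycolytic genes only isozyme G stayed called with that replicate, a hair past the fold threshold (-1.502). The 6-phosphofructokinase 6-like gene fell a hair under it (1.498).

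**Figure D3:**
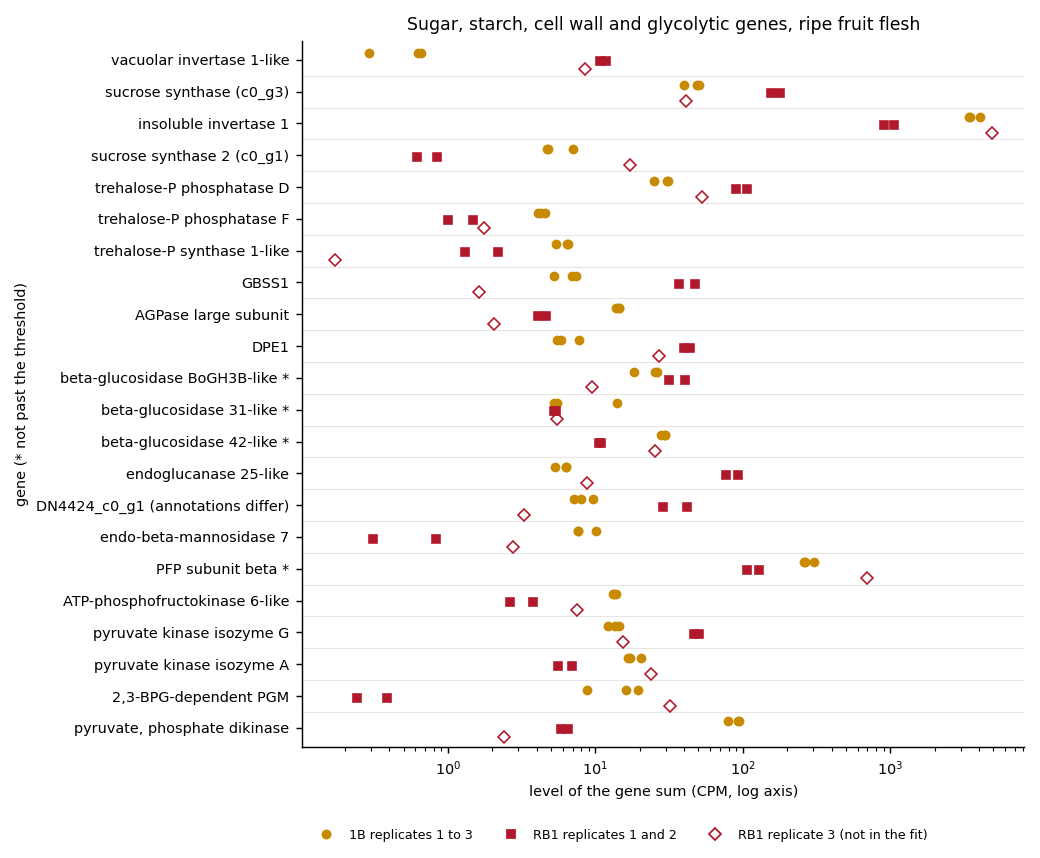
Level in CPM (log axis) of the called or RT-qPCR-measured genes of sugar, starch, cell wall and glycolysis in each ripe library, with ‘1B’ as circles, ‘RB1’ replicates 1 and 2 as squares and ‘RB1’ replicate 3 as open diamonds; an asterisk marks genes not called. The diamond lies with the circles for endoglucanase 25-like (8.70 CPM) and cpSUS (41.4 CPM), and with the squares for the vacuolar invertase (8.45 CPM).

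The mevalonate pathway, which builds terpene and sterol precursors in the cytosol from acetyl-CoA, had 3 listed genes. All 3 were called lower in ‘1B’, as were 11.6% of all gene sums. The list held no gene between the first and the last step of the pathway. Acetyl-CoA acetyltransferase 1-like (TRINITY_DN1293_c0_g1), which joins acetyl-CoA units in its first step, had 63.3, 58.4 and 62.7 CPM in ‘1B’, against 501 and 546 CPM in ‘RB1’, 8.52-fold lower (log2 fold change -3.08, SE 0.18, adjusted p = 1.14e-16). Acetyl-CoA acetyltransferase 2 (TRINITY_DN5472_c0_g1), of the same step, had 3.26, 2.49 and 2.92 CPM in ‘1B’, against 13.5 and 14.2 CPM in ‘RB1’ (log2 fold change -2.25, SE 0.16, adjusted p = 6.45e-14). Diphosphomevalonate decarboxylase MVD2 (TRINITY_DN12097_c0_g1), of its last step, had 5.38, 5.99 and 5.19 CPM in ‘1B’, against 21.2 and 16.2 CPM in ‘RB1’ (log2 fold change -1.78, SE 0.16, adjusted p = 1.42e-11). ‘RB1’ ripe replicate 3 lay between the groups in all 3, nearer to ‘1B’, with 89.6, 4.73 and 8.60 CPM. With it, both acetyltransferases were called (log2 fold changes -2.65 and -1.92, adjusted p = 0.0171 and 0.0143) and MVD2, at -1.497 (adjusted p = 0.0155), was a hair under the fold threshold, as it was without ‘RB1’ ripe replicate 1 (-1.49). In limma on TMM-scaled TPM, and scaled by library size only, MVD2 was not called, with the same sign.

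The plastid isoprenoid pathway, the other source of terpene precursors, had none of its 4 listed genes called, with log2 fold changes from -0.73 to 0.37. Of 4 genes of prenyl chains and prenylated proteins, solanesyl diphosphate synthase 3 (TRINITY_DN2423_c0_g2), which makes the side chain of quinones, was lower, with 12.4, 12.2 and 13.6 CPM in ‘1B’, against 53.3 and 48.0 CPM in ‘RB1’ (log2 fold change -1.99, SE 0.15, adjusted p = 1.43e-13). Farnesylcysteine lyase (TRINITY_DN4683_c0_g1), which recycles farnesyl groups, was higher, with 12.9, 13.6 and 17.5 CPM in ‘1B’, against 4.89 and 3.88 CPM in ‘RB1’ (log2 fold change 1.69, SE 0.18, adjusted p = 1.40e-09). The terpene synthase gene TRINITY_DN2620_c0_g1, under which the geranylinalool synthase-like (cpGES) and linalool synthase-like (cpLIS) transcripts both fall, overlapped between the varieties, with 157, 144 and 270.4 CPM in ‘1B’, against 260.4 and 258 CPM in ‘RB1’ (log2 fold change -0.44, SE 0.20, adjusted p = 0.0657). ‘RB1’ ripe replicate 3 had 1062 CPM of it. The benzyl alcohol O-benzoyltransferase-like gene (TRINITY_DN4842_c0_g1, cpBAO), of an acyltransferase that makes benzoate esters, was abundant in every library, with 2169, 2093 and 2349.8 CPM in ‘1B’, against 2834 and 2160.2 CPM in ‘RB1’. Its log2 fold change of -0.18 (SE 0.23, adjusted p = 0.523) took the other sign by library size only (0.10), without ‘RB1’ ripe replicate 1 (0.09) and in limma (0.39), and the sign of the terpene synthase gene also turned in limma (0.10).

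Aldehyde-converting genes gave the largest fall among the listed genes. Member B7 of the mitochondrial aldehyde dehydrogenases (TRINITY_DN1920_c0_g1), which turn aldehydes into acids, had 8.55, 7.68 and 4.83 CPM in ‘1B’, against 234 and 209 CPM in ‘RB1’. It was 31.6-fold lower in ‘1B’, with 3.62 CPM in ‘RB1’ ripe replicate 3. Its share of the 4 listed aldehyde dehydrogenases in TMM-scaled TPM was 3.27% in ‘1B’ and 38.8% in ‘RB1’. Member B4 held most of the rest, 92.2% and 59.8%, and the 4 genes summed to 125 ± 14.4 TPM in ‘1B’ (SD, n = 3) and 224 ± 1.17 TPM in ‘RB1’ (SD, n = 2), or 283 ± 37.3 CPM in ‘1B’ and 678 ± 79.8 CPM in ‘RB1’. Aldehyde dehydrogenase 3F1 (TRINITY_DN31090_c0_g1) was higher, with 3.36, 3.04 and 3.87 CPM in ‘1B’, against 0.463 and 0.388 CPM in ‘RB1’ (log2 fold change 2.93, SE 0.28, adjusted p = 8.83e-11). A chloroplastic NADPH-dependent aldo-keto reductase (TRINITY_DN3366_c0_g1), of a family that reduces aldehydes and ketones, had 27.9, 27.7 and 31.9 CPM in ‘1B’, against 4.27 and 2.72 CPM in ‘RB1’ (log2 fold change 2.97, SE 0.19, adjusted p = 4.41e-15). ‘RB1’ ripe replicate 3 lay below every ‘1B’ library in both 3F1 (0.685 CPM) and the reductase (4.81 CPM). Over 6 libraries their log2 fold changes were 2.66 and 2.85 (adjusted p = 0.00187 and 0.000804). Alcohol dehydrogenase class-P (TRINITY_DN1848_c0_g1), which interconverts aldehydes and alcohols, did not separate the varieties in ripe flesh, with 2.01 to 3.69 CPM in ‘1B’, against 2.82 and 2.10 CPM in ‘RB1’ (log2 fold change 0.07, SE 0.24, adjusted p = 0.828).

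Fatty acid genes moved both ways. Long chain acyl-CoA synthetase 2 (LACS2, TRINITY_DN1831_c0_g1), which activates fatty acids, had 77.8, 75.1 and 85.6 CPM in ‘1B’, against 280.2 and 229 CPM in ‘RB1’ (log2 fold change -1.68, SE 0.17, adjusted p = 2.08e-10). Palmitoyl-protein thioesterase 1-like (TRINITY_DN7518_c0_g1), which removes fatty acyl groups from proteins, had 1.17, 1.25 and 1.48 CPM in ‘1B’ and no count in ‘RB1’ replicates 1 and 2, at least 27.1-fold higher against a floor of 3 counts over the ‘RB1’ group, and 0.0171 CPM in ‘RB1’ ripe replicate 3. One of the 2 listed genes for the alpha subunit of plastid acetyl-CoA carboxylase (TRINITY_DN578_c0_g1), which starts fatty acid synthesis, had 59.9, 64.4 and 71.7 CPM in ‘1B’, against 17.8 and 15.4 CPM in ‘RB1’ (log2 fold change 1.96, SE 0.17, adjusted p = 6.92e-12). The other (TRINITY_DN5108_c1_g1) was well under the threshold (log2 fold change 0.57, adjusted p = 0.0046). ‘RB1’ ripe replicate 3 had 136 CPM of the first, above every ‘1B’ library, and 75.99 CPM of LACS2, within the ‘1B’ range, and neither was called with it (log2 fold changes 0.19 and -1.32, adjusted p = 0.869 and 0.0571). TRINITY_DN7525_c0_g1, with differing annotations, was lower (log2 fold change -1.97, SE 0.18, adjusted p = 2.55e-11), and was not called with that replicate (-1.47, adjusted p = 0.161).

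**Figure D4:**
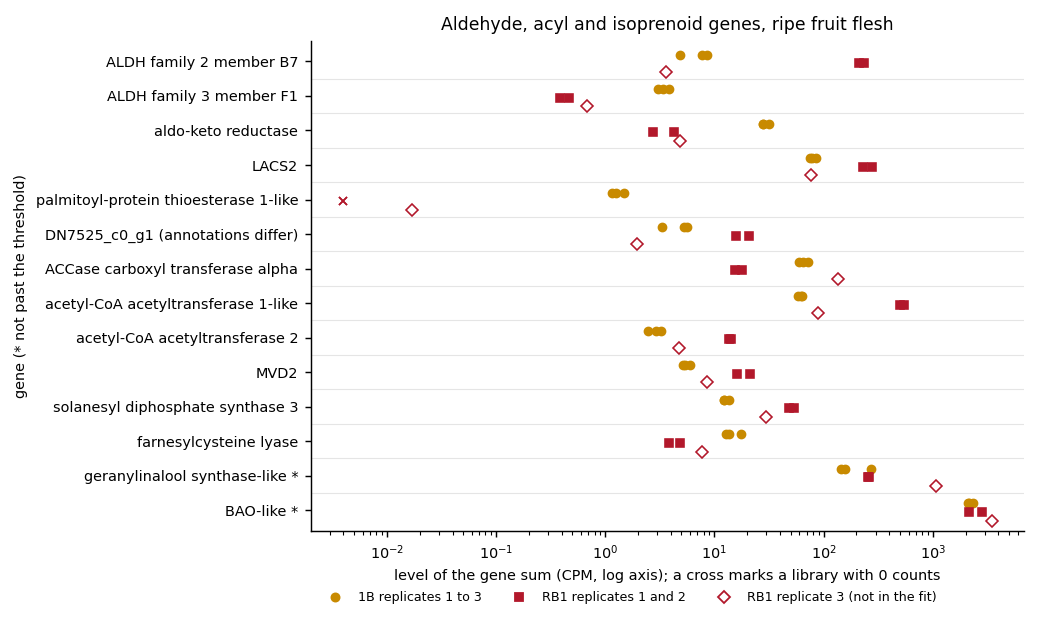
Level in CPM (log axis) of the called or RT-qPCR-measured genes of aldehyde, acyl and isoprenoid metabolism in each ripe library, with ‘1B’ as circles, ‘RB1’ replicates 1 and 2 as squares and ‘RB1’ replicate 3 as open diamonds; a cross is a library without a count and an asterisk a gene not called. The 3 mevalonate genes lie lower in ‘1B’, with acetyl-CoA acetyltransferase 1-like at 58.4 to 63.3 CPM, against 501 and 546 CPM in ‘RB1’, and the open diamond at 89.6 CPM.

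Behind the gene sums, the isoform that led a gene differed between the varieties in some of the named genes. Of 88526 isoforms tested, 14453 (16.3%) were called, 8170 (9.23%) higher and 6283 (7.1%) lower in ‘1B’. Leaving out a ‘1B’ library turned that order, with 863 higher and 1467 lower without replicate 1, 2571 and 4806 without replicate 2, and 1860 and 2994 without replicate 3. In the full set, 1465 genes had called isoforms in both directions, of which 271 had a gene sum past the threshold. Conversely, 5352 of the 10145 called gene sums had no isoform called. Of the 36 genes named above for their call or as RT-qPCR genes, 35 had counts in both varieties, and the most abundant isoform was a different one in 8 of these. In 6 of the 8 the isoform leading in ‘RB1’ had a count in both ‘RB1’ libraries. In LACS2 the isoform i39 held 90.2% of the gene's level in ‘1B’ and 18.7% in ‘RB1’, at 69.8, 67.6 and 77.6 CPM in ‘1B’, against 64.6 and 30.8 CPM in ‘RB1’ (log2 fold change 0.68, adjusted p = 0.296). The lower gene sum thus lay in other isoforms, above all i1, with 1.24, 1.31 and 0.996 CPM in ‘1B’, against 133 and 107.2 CPM in ‘RB1’ (log2 fold change -6.55, adjusted p = 0.00561). GBSS1 has 2 isoforms, and the one that held 96.9% of its level in ‘RB1’ (i2; 1.71, 2.13 and 0 CPM in ‘1B’, against 45.9 and 35.6 CPM in ‘RB1’) was not called (adjusted p = 0.122), while the other (i1) was called higher in ‘1B’, at 5.73, 4.81 and 5.23 CPM, against 1.61 and 1.01 CPM in ‘RB1’ (log2 fold change 2.10, adjusted p = 0.0273).

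The beta-glucosidases whose sums were close showed the same. In cpBGH3B the isoform i2, with 82.3% of the gene's level in ‘RB1’ (33.5 and 25.7 CPM), had no count in any ripe ‘1B’ library, at least 2359.8-fold lower against 3 counts over the ‘1B’ group. Its place in ‘1B’ was taken by i11, with 20.7, 21.6 and 16.2 CPM in ‘1B’, against 1.95 and 0 CPM in ‘RB1’ (log2 fold change 4.23, SE 1.39, adjusted p = 0.109). In cpBGLU31 the isoform i2 likewise had no count in ‘1B’, against 2.98 and 2.56 CPM in ‘RB1’, at least 221-fold lower, and ‘RB1’ ripe replicate 3 had 2.18 CPM of it. Salmon divides reads that match several isoforms, so an isoform at 0 does not show that its sequence is missing from a variety. The number of isoforms called moved with the libraries, to 2330, 7377 and 4854 without ‘1B’ ripe replicate 1, 2 or 3 and to 15003 and 10211 without ‘RB1’ ripe replicate 1 or 2.

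Gene sums with counts in 1 variety only were mostly rare transcripts of ‘1B’. At least 10 counts in each of the 3 ‘1B’ libraries and none in ‘RB1’ replicates 1 and 2 were found for 419 gene sums, of which 415 were called, at a median of 0.251 CPM. The reverse held for 37 gene sums, all called, at a median of 1.17 CPM. The smaller depth of ‘RB1’ replicate 2 makes a count of 10 harder and a count of 0 easier to reach in ‘RB1’, so the numbers 419 and 37 are not comparable. Of the 419, 269 had a count in ‘RB1’ ripe replicate 3 and 109 had none in any unripe ‘RB1’ library. Of the 37, 28 had no count in any unripe ‘1B’ library, and so in no ‘1B’ library at all. The full pattern in all 12 libraries, kept by 15 of the 419 and 7 of the 37, also asks for at least 10 counts in every library of the own variety. It thus measures expression at both stages as well as absence from the other variety.

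The files pair no name with the genes that differed most, and a pair from each direction is given here. TRINITY_DN4306_c0_g2 had 79.4, 72.8 and 58.7 CPM in ‘1B’ and no count in ‘RB1’ replicates 1 and 2, at least 1466-fold higher, and hardly any in unripe fruit (0.0960 ± 0.166 CPM in ‘1B’ and 0 in ‘RB1’; SD, n = 3 each). TRINITY_DN2158_c0_g1 was its mirror image, with no count in ‘1B’ against 85.8 and 63.7 CPM in ‘RB1’, at least 5965-fold lower, but ‘RB1’ ripe replicate 3 had 0.617 CPM and unripe ‘RB1’ 0.497 ± 0.169 CPM (SD, n = 3). TRINITY_DN16477_c0_g1 differed on another scale. It took 12.3%, 11.1% and 9.65% of all counts of the ‘1B’ ripe libraries, with 91847, 75554 and 73197 CPM, against 80.2 and 5.90 CPM in ‘RB1’ (log2 fold change 10.80, SE 0.81, adjusted p = 1.60e-13). In unripe fruit it stood at 150706 ± 6749 CPM in ‘1B’, against 30.2 ± 51.4 CPM in ‘RB1’ (SD, n = 3 each), so this difference was found at both stages. The gene carries no name here, and whether its sequence is of papaya was not tested. In the other direction among the most abundant genes, TRINITY_DN117_c1_g1 had 10138, 8585 and 8717 CPM in ‘1B’, against 33518 and 68408 CPM in ‘RB1’ (log2 fold change -2.46, SE 0.33, adjusted p = 9.36e-08), with 9877 CPM in ‘RB1’ ripe replicate 3.

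Of the 30 listed genes called in ripe flesh, 5 were called in unripe fruit in the same direction, 7 in the opposite direction and 18 were not called (11 libraries in 1 fit, without ‘RB1’ ripe replicate 3). Of all 10145 gene sums called in ripe flesh, 1216 (11.99%) were called in unripe fruit in the same direction, 769 (7.58%) in the opposite direction and 8160 (80.4%) were not called. Of the 18 listed genes, 4 passed the adjusted p alone in unripe fruit in the same direction and 8 in the opposite one. Acetyl-CoA acetyltransferase 1-like kept its direction, with 12.2 ± 0.934 CPM in unripe ‘1B’ and 164 ± 13.1 CPM in unripe ‘RB1’ (SD, n = 3 each; log2 fold change -3.73), and so did endo-beta-mannosidase 7, with 45.4 ± 4.57 and 4.35 ± 0.651 CPM (3.42). GBSS1 turned over, at 29.4 ± 1.40 CPM in unripe ‘1B’ and 3.33 ± 0.692 CPM in unripe ‘RB1’ (log2 fold change 3.21). Sucrose synthase 2 turned the other way, at 0.109 ± 0.0750 CPM in unripe ‘1B’ and 11.05 ± 1.02 CPM in unripe ‘RB1’ (-6.63). MVD2, lower in ripe ‘1B’, had 20.8 ± 2.21 CPM in unripe ‘1B’ and 10.8 ± 0.831 CPM in unripe ‘RB1’, under the fold threshold (0.96). Tested directly, the difference between the stages passed both thresholds for 28 of the 36 named genes (33.2% of all gene sums did), above 0 for 15 and below 0 for 13, with opposite signs at the stages for 19. Of the 36, 30 were named for their ripe call, and the ripe value is part of this difference, so the shares cannot be compared. Per the study, RNA quality scores were higher in the 3 unripe ‘1B’ libraries than in all others. Their TMM factors were 0.658 to 0.675, against 1.32 to 1.47 in ripe ‘1B’, and what this does to the difference was not tested.

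**Figure D5:**
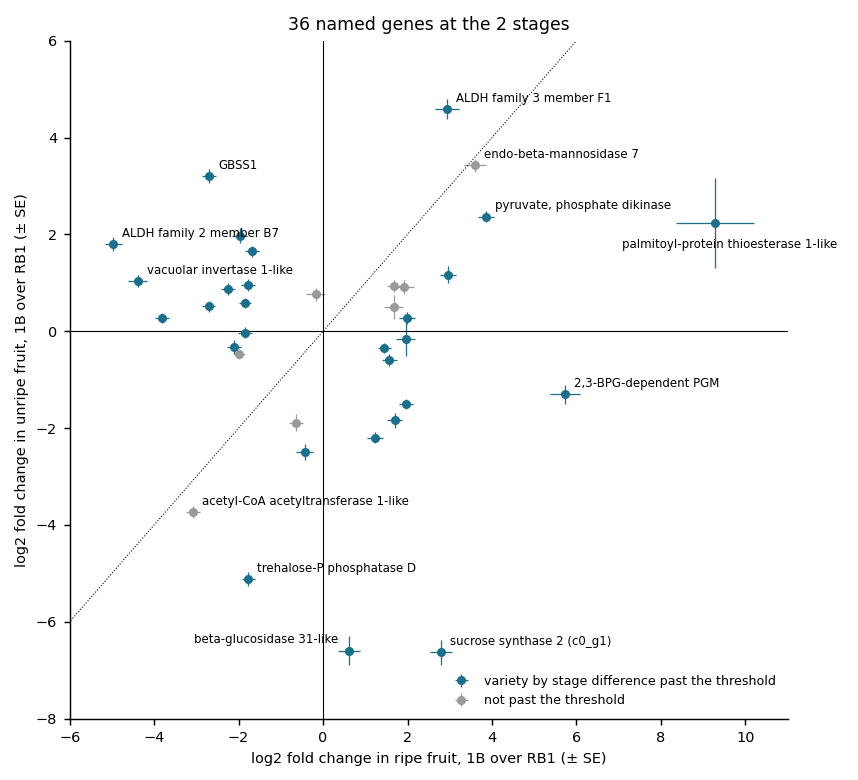
Log2 fold change (± SE), ‘1B’ over ‘RB1’, in ripe (5 libraries) against unripe fruit for the 36 named genes, coloured where the difference between the stages passed both thresholds; the dotted line marks equal values. GBSS1 lies at -2.69 in ripe and 3.21 in unripe fruit and sucrose synthase 2 at 2.79 and -6.63, while endo-beta-mannosidase 7 lies near the line at 3.59 and 3.42; the ripe value of palmitoyl-protein thioesterase 1-like is fitted against 0 counts and is no bound.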

How the data were processed

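RNA of ripe fruit flesh from ‘1B’ (n = 3) and ‘RB1’ (n = 2) was compared. Per the authors, expected counts came from reads cleaned with bbduk, Trimmomatic 0.40 and FastQC 0.11.9 (versions also in the submitters' processing notes), assembled with Trinity over both varieties and estimated per transcript with Salmon. The deposited signal values are TPM that the authors scaled by TMM, and were used for levels per length and for limma. Expected counts were rounded, or first summed per Trinity gene, then filtered with filterByExpr, TMM-scaled and tested with edgeR 4.0.16 (R 4.3.3; estimateDisp, quasi-likelihood fit and test, Benjamini-Hochberg adjustment). SE is the log2 fold change over the root of F. The members and gene lists were chosen with earlier results of these data known. Named were the listed genes called, the RT-qPCR genes, and, without annotation, a pair of the most different or most abundant gene sums in each direction; other listed genes given with values were chosen after their values were seen. P-values rest on the spread between 3 fruits of ‘1B’ and 2 of ‘RB1’, with information on spread shared across genes. They leave out the spread added by ‘RB1’ ripe replicate 3, with which 4405 gene sums were called instead of 10145. The 3 counts are a floor for counting error only. Alternatives were DESeq2 1.42.0, limma 3.58.1 with a pseudocount of 1 or 0.1, glmTreat, RLE or library size scaling, a median of 0, other filters, thinned counts, a replicate block, a fit of all groups, and each library left out. Level ranges under these settings were added after seeing the data. Sequences and genome positions were not used here, and of 81 listed loci 37 matched the RefSeq gene table.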

Additional observations from a re-analysis of the deposited data

Results flagged for a closer look

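For 28 of the 36 named genes the difference between ‘1B’ and ‘RB1’ was not the same in ripe as in unripe fruit, by a test of the difference itself in 1 edgeR fit of 11 libraries. Unripe ‘1B’ had higher RNA quality scores than every other group, and the effect of this on the difference was not tested. The value given is the log2 fold change in ripe minus that in unripe fruit, and it passed both thresholds for 33.2% of all gene sums. Most of the 36 genes were named for their ripe value, which is part of this difference, so the shares cannot be compared. It was above 0, so ‘1B’ stood higher relative to ‘RB1’ in ripe than in unripe fruit, for sucrose synthase 2 (9.48), beta-glucosidase 31-like (7.27), phosphoglycerate mutase (7.10), palmitoyl-protein thioesterase 1-like (6.80, fitted against 0 counts in ripe ‘RB1’ and no bound), farnesylcysteine lyase (3.58), the acetyl-CoA carboxylase alpha subunit (3.52), cpPFP (3.48) and trehalose-phosphate phosphatase D (3.40). Smaller values above 0 were found for pyruvate kinase isozyme A (2.23), trehalose-phosphate synthase 1-like (2.18), cpGES and cpLIS (2.12), cpBGLU42 (1.84), the aldo-keto reductase (1.84), 6-phosphofructokinase 6-like (1.77) and pyruvate, phosphate dikinase (1.54).

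The value was below 0 for aldehyde dehydrogenase B7 (-6.72), GBSS1 (-5.85), the vacuolar invertase (-5.37), endoglucanase 25-like (-4.04), TRINITY_DN7525_c0_g1 (-3.90), long chain acyl-CoA synthetase 2 (-3.27), DPE1 (-3.17), acetyl-CoA acetyltransferase 2 (-3.07) and MVD2 (-2.68). It was also below 0 for pyruvate kinase isozyme G (-2.39), cpSUS (-1.77), TRINITY_DN4424_c0_g1 (-1.73) and aldehyde dehydrogenase 3F1 (-1.61).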

How the results depend on the processing

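Against 10145 gene sums called (6160 higher, 3985 lower in ‘1B’), keeping ‘RB1’ ripe replicate 3 gave 4405 (2401 and 2004), a minimum of 1 CPM in 2 libraries 4598 (2666 and 1932), thinning to the shallowest library 4917 (2846 and 2071), glmTreat 4437 (1995 and 2442), limma on TPM plus 1 1969 (1122 and 847), limma on TPM plus 0.1 7624 higher and 2102 lower, and no fold threshold 19094 (10227 and 8867). Leaving out 1 library gave 6323 to 10191 calls, 3861 to 6810 higher and 2462 to 4365 lower, lowest each time without ‘RB1’ ripe replicate 1. Library size only gave 8600 higher and 3085 lower, and a median of 0 gave 4875 and 5145. The median log2 fold change of all gene sums was 0.31, and 0.62 by library size only, 0.72 in limma on TPM plus 0.1 and 0.07 after thinning. Of the listed genes, 30 were called (15 and 15), 17 (8 and 9) with ‘RB1’ ripe replicate 3, 6 lower in limma on TPM plus 1, 23 higher and 9 lower on TPM plus 0.1, and 61 (32 and 29) with no fold threshold. Leaving out 1 library gave 28 to 33 listed genes (14 to 18 higher, 13 to 16 lower).

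Isoform calls, 14453, were 6637 with ‘RB1’ ripe replicate 3, 6144 with no low-count filter, 20441 in DESeq2 and 2330 to 15003 without 1 library, with the majority lower in ‘1B’ without any 1 of the ‘1B’ libraries. Replicate numbers did not pair the fruits (correlations of deviations 0.013 and 0.030). With the replicate block, edgeR called 8921 gene sums (5200 and 3721), 30 listed genes and 0 isoforms, where 13817 isoforms had an unadjusted p under 0.05.

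Signs turned with ‘RB1’ ripe replicate 3 for sucrose synthase 2 (-0.22) and cpPFP (-0.19), and for cpGES and cpLIS in both limma fits (0.10 and 0.10). They turned for cpBAO with a minimum of 1 CPM (0.043), library size only (0.10), limma (0.39 and 0.39), thinning (0.020) and without ‘RB1’ ripe replicate 1 (-0.42 to 0.088 over the libraries left out). Among abundant genes not called, TRINITY_DN150_c0_g1 turned in limma (0.082 and 0.082), and TRINITY_DN1791_c0_g1 with ‘RB1’ ripe replicate 3 (0.0047), no filter (0.0039), a minimum of 1 CPM (0.15), library size only (0.20), limma (0.48 and 0.48), thinning (0.11) and leaving out a library (-0.30 to 0.17). Causes were not tested. The 10949060 counts of ‘RB1’ ripe replicate 2 limit what can be said of genes under 1 CPM.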
